A study of Homo sapiens with 3 samples.

Results

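The MYC, MAX and MXD network is a set of 10 genes named for their place in it, and all 10 were found by Ensembl identifier among the 62754 genes of the table. They are MYC, MYCN and MYCL, MAX, the MXD family of MXD1, MXI1, MXD3 and MXD4, and MNT and MGA. RNA was measured in 3 replicates of MCF10A, a human breast epithelial line that grows indefinitely but forms no tumors. All 3 carried the empty Tet-One retroviral vector with no gene inserted, were selected with puromycin, received no doxycycline and no treatment, and belong to 1 batch. There was thus 1 condition and no second group to compare it with, and since nothing states that the replicates were separate cultures, the spread between them may be technical. The level of a gene is given in TPM, the reads of a gene divided by its length and scaled to a total of 1000000 per replicate, so that levels of different genes can be compared. By the step of the lowest values, the reads assigned to genes numbered 15273329 in replicate 1, 15446347 in replicate 2 and 11166546 in replicate 3.

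The proteins of this network bind DNA as pairs, joined through a helix-loop-helix and leucine zipper, at the E-box with the letters CACGTG. MAX is the shared partner: with MYC, MYCN or MYCL it activates genes of growth and ribosome production, and with the MXD proteins or MNT it represses them through the SIN3 corepressor, mostly as cells stop dividing or differentiate. MGA pairs with MAX in a Polycomb complex. The choice of partner is known to shift with growth signals, and MYC RNA and protein are both short-lived. What follows is about RNA, and the amounts of protein or of pairs were not measured.

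The E-box itself was looked for in promoter windows of 300 bases, from 250 before to 50 after a start site, on GRCh38.p14. The RefSeq windows used here covered 9 of the 10 members. MYC had no window among them, so its promoter was not searched. It was present in the windows of 2 of these 9 members (22.2%), MNT and MXD4, against 8.77% of 27305 genes with any window. By window it was present in 2 of 14 (14.3%), against 7.26% of 35116 windows. These differences were not tested. Both are printed 5′ to 3′ on the strand of the gene, with the E-box in capitals. They are the searched windows that hold the letters the proteins of this network bind. CACGTG reads the same on both strands and was searched without other motifs. A match describes the letters only and is not a bound site. In the MNT window, chr17:2401011-2401310 on the minus strand, the E-box begins 193 bases upstream of the start site. In the MXD4 window, chr4:2262060-2262359 on the minus strand, it begins 238 bases upstream.
MNT: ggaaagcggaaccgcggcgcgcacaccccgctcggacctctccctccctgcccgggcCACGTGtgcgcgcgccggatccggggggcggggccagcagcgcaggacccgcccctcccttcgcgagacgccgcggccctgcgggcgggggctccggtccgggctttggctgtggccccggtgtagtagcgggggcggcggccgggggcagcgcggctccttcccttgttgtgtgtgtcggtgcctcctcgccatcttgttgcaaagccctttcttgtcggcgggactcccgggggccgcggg
MXD4: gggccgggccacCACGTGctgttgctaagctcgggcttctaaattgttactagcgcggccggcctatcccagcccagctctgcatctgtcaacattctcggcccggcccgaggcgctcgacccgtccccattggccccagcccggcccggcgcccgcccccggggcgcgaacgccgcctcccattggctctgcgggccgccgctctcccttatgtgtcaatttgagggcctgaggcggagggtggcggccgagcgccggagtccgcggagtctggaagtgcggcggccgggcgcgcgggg

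The cells carried the RNA of their label. All 9 epithelial and basal markers were above 1 TPM, with a summed level between 12862 and 16518 TPM per replicate and KRT5, the basal keratin, at 6612 ± 890 TPM (SD, n = 3). Summed levels were between 11.9 and 16.3 TPM for 5 luminal and hormone receptor markers, 1.15 and 2.96 TPM for 4 immune markers, 6.60 and 7.91 TPM for 5 fibroblast and endothelial markers, and 0.202 and 1.45 TPM for 5 neuronal and neuroendocrine markers. By the mean, 2 of the 5 luminal markers (GATA3 at 12.8 and FOXA1 at 1.11 TPM), 1 of the 4 immune markers (CD14 at 1.96 TPM), 2 of the 5 fibroblast and endothelial markers (COL1A1 at 4.96 and PECAM1 at 1.77 TPM) and 0 of the 5 neuronal and neuroendocrine markers reached 1 TPM, and their part in the levels of the members was not tested. ESR1 and KRT19 each had reads in 1 replicate only, and the T cell marker CD3E in none. In such bulk RNA, fewer cells that express a gene and less RNA per cell cannot be told apart.

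MYC was by far the most abundant member. Its level was 451, 445 and 323 TPM in replicates 1, 2 and 3, a mean of 406 ± 72.6 TPM (SD, n = 3), from 8839, 8968 and 5378 reads. Replicate 3 was the lowest and the other two lay close together. By its mean, MYC ranked 289 among 20046 protein-coding genes and was above 98.6% of them. MYC (ENSG00000136997) lies on the plus strand of chromosome 8, from 127735434 to 127742951 of hg38. On the opposite strand 5.21% of its canonical transcript is covered by CASC11, which had at most 0.336 TPM in a replicate, and on its own strand no gene overlaps it.

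The MYC paralogs were at or near the limit of the data. MYCL (ENSG00000116990, chromosome 1), best known from small cell lung cancer, was measured at 0.593, 0.577 and 0.127 TPM from 11, 11 and 2 reads. The exact Poisson 95% intervals of these values, which cover counting error only, were 0.296 to 1.06, 0.288 to 1.03 and 0.0153 to 0.458 TPM and overlapped one another. MYCN (ENSG00000134323, chromosome 2), the form expressed in the developing nervous system and amplified in neuroblastoma, had 0 reads in every replicate, which allows up to 0.218, 0.212 and 0.256 TPM at 3 reads. MYCN was therefore not detectable at this depth. Their antisense neighbours MYCL-AS1 and MYCNOS were at most at 0.285 TPM and at 0 reads.

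MAX (ENSG00000125952), on the minus strand of chromosome 14 from 65006174 to 65102695, was second in the order. Its level was 55.4, 57.2 and 42.7 TPM in replicates 1, 2 and 3, a mean of 51.8 ± 7.89 TPM (SD, n = 3), above 84.1% of protein-coding genes. The shared partner was thus measured far below MYC in each replicate, with no overlap between their values.

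The genes of the repressive partners formed a narrow band, from 10.4 to 21.9 TPM by the mean. In the MXD family, MXD4 (ENSG00000123933, chromosome 4) was measured at 23.4, 21.9 and 20.6 TPM. MXD1 (ENSG00000059728, chromosome 2), the founding member first named MAD and induced as cells differentiate, was measured at 19.1, 17.7 and 14.4 TPM. MXI1 (ENSG00000119950, chromosome 10) was measured at 15.8, 14.7 and 13.6 TPM.
All 3 of these genes were highest in replicate 1 and lowest in replicate 3. MXD3 (ENSG00000213347, chromosome 5), the family member known to be expressed in proliferating cells, was measured at 9.87, 12.9 and 8.26 TPM from 118, 159 and 84 reads and was highest in replicate 2. MNT (ENSG00000070444, chromosome 17), a broadly expressed antagonist of MYC, was measured at 16.9, 20.4 and 16.2 TPM. An unnamed antisense gene (ENSG00000262456) covers 21.6% of its canonical transcript and was listed at 0, 0.347 and 0 TPM. MGA (ENSG00000174197, chromosome 15), the largest protein of the network, with a T-box domain besides its helix-loop-helix, was measured at 19.7, 22.5 and 16.7 TPM. These members had between 361 and 4373 reads over all replicates, and 8 of the 10 members reached 1 TPM, the cutoff for expression used here, in each replicate. Of all 20046 protein-coding genes, 11068 reached 1 TPM in each replicate, and 56.7% were at or above it by the mean.

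**Figure D1:**
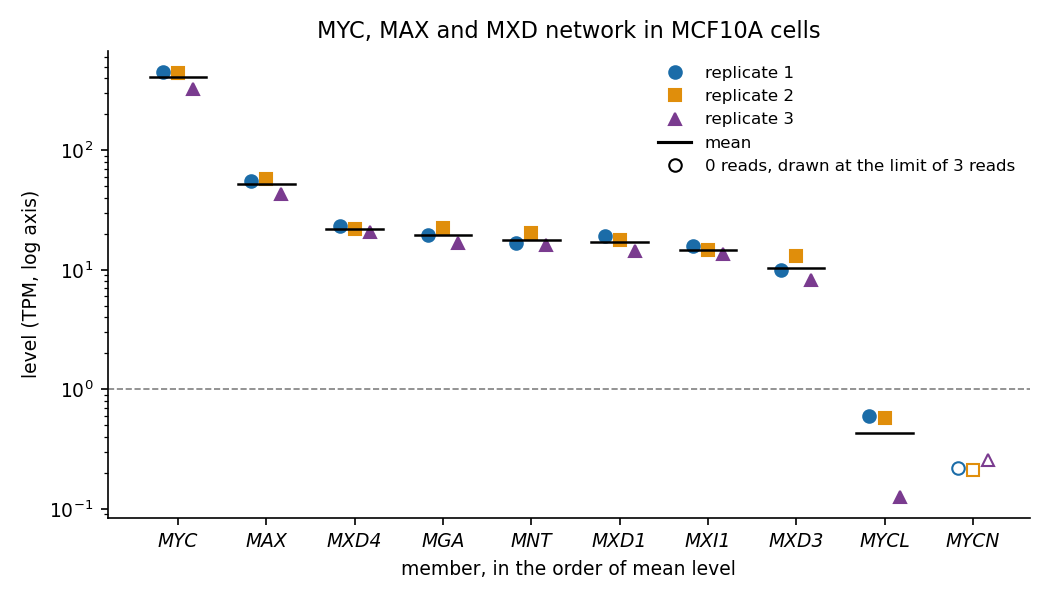
Level of each member in TPM (log axis) in replicates 1 to 3, with the mean as a line and a dashed line at 1 TPM; MYCN, with 0 reads, is drawn open at the limit of 3 reads. MYC lies between 323 and 451 TPM, MAX between 42.7 and 57.2 TPM, the MXD genes, MNT and MGA between 8.26 and 23.4 TPM, and MYCL and MYCN below 1 TPM.

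The order by the mean was MYC, MAX, MXD4, MGA, MNT, MXD1, MXI1, MXD3, MYCL and MYCN. Neighbours in it were compared within each replicate on the scale of log2(TPM + 1), and called separated where the order was the same in every replicate and the mean difference larger than its SD. The rule was met by 7 of 9 neighbouring pairs. For MYCL over MYCN, 1 of the 7, it rests on the 0 reads of MYCN. In replicate 3 MYCL, at 0.127 TPM, was below the limit of 0.256 TPM for MYCN, so their order was not detectable at this depth. MXD4 and MGA were not separated, with a difference of 0.16 ± 0.18 on this scale (SD, n = 3) and the same order in 2 of 3 replicates, nor were MNT and MXD1, at 0.06 ± 0.20 (SD, n = 3). The difference was largest for MXD3 over MYCL, at 2.98 ± 0.19, and for MYC over MAX, at 2.94 ± 0.06 (SD, n = 3 each). With 3 replicates the exact sign-flip permutation test, two-sided, cannot go below p = 0.25, which it gave for all 7 pairs that met the rule (0.321 after Benjamini-Hochberg adjustment over 9 pairs).

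Among the RNAs of the partners that can pair with MAX, MYC made up the bulk. Within each replicate its share of their summed TPM was 81.1%, 80.1% and 78.2%, a mean of 79.8 ± 1.45% (SD, n = 3). The 4 MXD genes together held 12.7 ± 0.928%, MGA 3.88 ± 0.298% and MNT 3.55 ± 0.461% (SD, n = 3 each), and MYCL with MYCN 0.107%, 0.104% and 0.0307%. MYC was at 3.98 ± 0.360 times the summed TPM of the MXD genes, MNT and MGA (SD, n = 3), and was the higher in every replicate. From reads with no division by length this ratio was 2.37 ± 0.208 (SD, n = 3). MGA then held 13.3 ± 0.924% and the 4 MXD genes together 12.3 ± 0.891% (SD, n = 3 each). Within the MXD family, MXD4 held 34.4 ± 1.83%, MXD1 26.6 ± 1.40%, MXI1 23.0 ± 1.07% and MXD3 16.1 ± 2.75% (SD, n = 3 each).

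**Figure D2:**
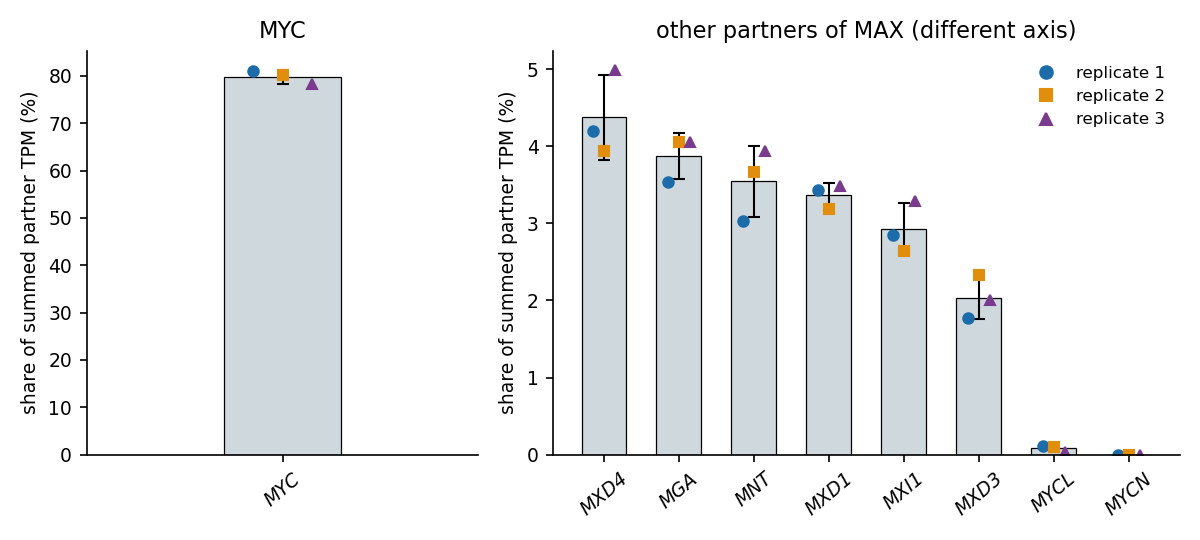
Share of each partner in the summed TPM of the 9 partners of MAX, in percent, with bars for the mean, error bars for the SD (n = 3) and points for replicates 1 to 3; the panels have different axes, both from 0. MYC holds 79.8% on average and each of the MXD genes, MNT and MGA between 2.03% and 4.38%.

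MAX was low beside the sum of its partners. The ratio of MYC to MAX in TPM was 8.14, 7.78 and 7.55 in replicates 1, 2 and 3, a mean of 7.82 ± 0.301 (SD, n = 3). All partners together were at 9.80 ± 0.212 times MAX, and the MXD genes, MNT and MGA at 1.97 ± 0.112 times (SD, n = 3 each). These ratios depend on the length by which reads are divided. The deposited TPM used the longest annotated transcript, which for MAX and MXD3 is 1.57 and 2.13 times as long as the canonical one, and for MGA 1.19 times. For MXD4 the ratio is 1.09, and for the other members it is close to 1. With canonical lengths for all genes, MYC to MAX was 4.99 ± 0.192 (SD, n = 3) and MXD3 was at 18.0 ± 3.96 TPM in place of 10.4 ± 2.38 (SD, n = 3 each), which moved it above MNT, MXD1 and MXI1. The order within the MXD family turned as well. With canonical lengths MXD3 held 28.1 ± 4.07% of it, behind MXD4 at 30.9 ± 2.28% and, by the mean, above MXD1 and MXI1, the lower of which was MXI1 at 18.9 ± 1.30% (SD, n = 3 each). From reads with no division by length, MXD3 held 8.93 ± 1.64% and MXD1 36.2 ± 1.69%, beside MXD4 at 35.5 ± 1.69% (SD, n = 3 each). With canonical lengths MYC remained first and MAX second in the order. From reads with no division by length MYC was first as well, but MAX was not second. MGA, at 1508, 1775 and 1090 reads, was above MAX, at 920, 977 and 604, in every replicate. Which transcripts of MAX and MXD3 the cells used cannot be read from a value per gene.

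**Figure D3:**
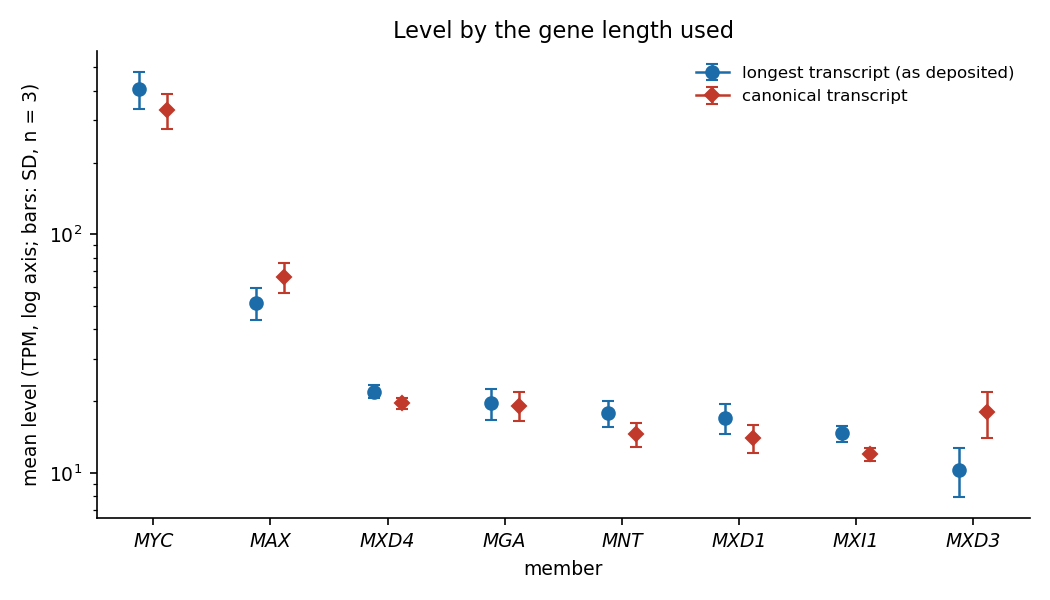
Mean level (TPM, log axis) with SD (n = 3) of 8 members, by the length of the longest transcript, as deposited, and of the canonical transcript; MYCL and MYCN are left out. MAX goes from 51.8 to 66.4 TPM and MXD3 from 10.4 to 18.0 TPM, while MYC goes from 406 to 332 TPM and stays above all others.

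Replicate 3 was lower than the others for every member with reads, as it was for most genes: its median log2 ratio to the mean of replicates 1 and 2 was -0.24 over 8807 genes that averaged 10 TPM or more and had reads in all 3. In this replicate the 10 most abundant genes held 23.8% of TPM, against 12.7% and 13.1%. The members were therefore compared between replicates after scaling each by its median ratio to the others. MYC was then at 424, 423 and 360 scaled TPM in replicates 1, 2 and 3 and still lowest in replicate 3, as were MAX, MXD1 and MXD3. MXD4, at 21.9, 20.8 and 23.0, and MXI1, at 14.9, 13.9 and 15.2, were highest there. Neither of these 2 differed by more than counting error (adjusted p = 0.461 for MXD4 and 0.699 for MXI1, chi-square test over all genes). By the same chi-square test, MAX, MXD1 and MXD3 did not reach an adjusted p under 0.05 either (0.109, 0.353 and 0.0775). MXD3 was nearly equal in replicates 1 and 3, at 9.28 and 9.23 scaled TPM.

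The reads of MYC, MGA and MNT differed between replicates by more than counting error, 3 of the 9 members with enough reads to test. Over all genes with at least 15 reads, 31.2% were called by this chi-square test at an adjusted p under 0.05, close to the share of the members. Among the 9490 genes with at least the 361 reads of MXD3, 41.2% were called. For MYC the chi-square was 107.5 with 2 degrees of freedom (Benjamini-Hochberg adjusted p = 3.64e-22). Its counting error was 1.06% to 1.36% of a value. MGA (adjusted p = 0.000225, chi-square test over all genes) and MNT (adjusted p = 0.0296, chi-square test over all genes) were highest in replicate 2, at 21.4 and 19.4 scaled TPM, against 18.5 and 15.9 in replicate 1 and 18.7 and 18.1 in replicate 3. No call of a member held without each of the replicates in turn. Without replicate 1 the called members were MYC, MAX and MGA (27.3% of all genes called), without replicate 2 MYC alone (8.93%), and without replicate 3 MGA and MNT (21.1%). With TPM as deposited and no scaling, 6 members were called, with 54.3% of all genes. For MYCL, whose 24 reads fell as 11, 11 and 2, the adjusted p was 0.254 by the same chi-square test over all genes. The test compares these libraries, not conditions.

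**Figure D4:**
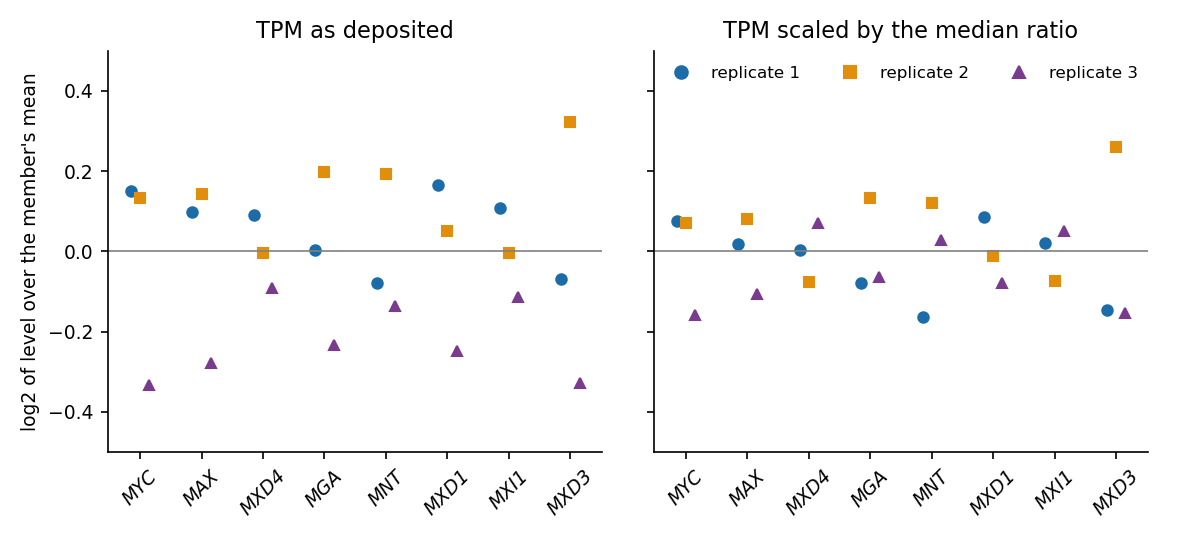
Log2 of the level in each replicate over the member's own mean, for 8 members (MYCL and MYCN left out), with TPM as deposited (left) and scaled by the median ratio (right). Replicate 3 is the lowest for all 8 on the left, and for MYC, MAX, MXD1 and MXD3 on the right, where it is the highest for MXD4 and MXI1.

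The parallel arm of the network, in which MLX takes the place of MAX, was present with 2 of its 3 genes. MLX, which also pairs with MXD1, MXD4 and MNT, was measured at 69.1, 73.8 and 58.1 TPM, with 32.8% of its canonical transcript covered by a gene on the opposite strand. It was 1.30 ± 0.0567 times MAX (SD, n = 3) and above it in every replicate. With canonical lengths the direction turned, with MLX at 0.905 ± 0.0395 times MAX (SD, n = 3) and below it in every replicate. MLXIP, the glucose sensor MondoA, was measured at 35.7 ± 5.61 TPM, above each of the MXD genes, and its paralog MLXIPL, known as ChREBP and expressed in liver and fat, at 0.189 ± 0.116 TPM (SD, n = 3 each).

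The 11 other helix-loop-helix factors listed here that bind E-boxes were lower than MYC. At or above 1 TPM were 10 of them (90.9%), against 56.7% of all protein-coding genes. The median of the 11 was 48.1 TPM. The highest were SREBF2, the regulator of cholesterol synthesis, at 137 ± 16.0 TPM, and SREBF1, that of fatty acid synthesis, at 80.6 ± 12.2 TPM (SD, n = 3 each). MYC was at 2.96 ± 0.197 times SREBF2 (SD, n = 3) and above it in every replicate (exact sign-flip permutation test, two-sided p = 0.25, the smallest possible). TFEC, at 0.0336 TPM, was the gene below 1 TPM.

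All listed genes of the complexes through which the network acts were at or above 1 TPM by the mean. Of all protein-coding genes, 56.7% were. All 14 genes of the SIN3 corepressor, which the MXD proteins and MNT recruit, reached 1 TPM in each replicate, with a median of 53.4 TPM and RBBP7 and HDAC1, a histone-binding subunit and a histone deacetylase, the highest at 125 ± 11.4 and 105 ± 2.26 TPM (SD, n = 3 each). SIN3A was at 48.3 ± 6.94 and SIN3B at 27.3 ± 6.53 TPM (SD, n = 3 each). All 11 partners of MGA in the Polycomb complex PRC1.6 were at or above it, with a median of 24.5 TPM. CBX3 and TFDP1, which also serve other complexes, were the highest at 381 ± 30.6 and 346 ± 39.9 TPM (SD, n = 3 each). PCGF6 and E2F6, which with MGA define this complex, were at 19.3 ± 2.78 and 14.9 ± 1.65 TPM (SD, n = 3 each).
All 13 cofactors of MYC and all 16 genes of MYC protein turnover were at or above 1 TPM, with medians of 55.4 and 55.9 TPM. Over all protein-coding genes the share was 56.7% and the median 3.75 TPM. Among the cofactors RUVBL2, a helicase of chromatin complexes, and HCFC1, a host cell factor that binds MYC, were the highest at 217 ± 32.95 and 108 ± 15.8 TPM, and ZBTB17, the factor MIZ1 through which MYC represses genes, was the lowest at 21.7 ± 3.27 TPM (SD, n = 3 each). Among the turnover genes SET, an inhibitor of the phosphatase PP2A, was the highest at 665 ± 59.9 TPM, followed by the kinase AURKA at 181 ± 19.5 TPM. FBXW7, which marks MYC for degradation, was at 29.3 ± 2.83 TPM, and HUWE1, another ubiquitin ligase, at 129 ± 17.4 TPM (SD, n = 3 each). The names of these lists are background and say nothing of the activity of MYC in these cells.

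Genes that MYC is known to activate were abundant. All 24 reached 1 TPM in each replicate, as did 11068 of 20046 protein-coding genes. The median of the 24 was 282 TPM, against a median of 3.75 TPM over all protein-coding genes. LDHA, lactate dehydrogenase A, at 2371 ± 218 TPM and NPM1, the nucleolar protein nucleophosmin, at 1862 ± 184 TPM were the highest, ODC1, the first enzyme of polyamine synthesis, was at 510 ± 31.4 TPM, and TERT, the catalytic subunit of telomerase, was the lowest at 1.71 ± 0.168 TPM (SD, n = 3 each). The value of EIF4A1, 24.5 ± 5.27 TPM (SD, n = 3), comes from a gene whose canonical transcript is shared in full with another gene on the same strand. Many genes of this list are needed by every growing cell, and no condition with less MYC was measured.
Of 8 genes listed here as repressed by MYC with ZBTB17, 7 were at or above 1 TPM. This was 87.5%, against 56.7% of all protein-coding genes, and the median of the 8 was 14.6 TPM. Whether MYC or ZBTB17 represses each of them was not tested. The highest were CDKN1A, the inhibitor p21, at 152 ± 14.96 TPM and NDRG1, a gene induced by stress and differentiation, at 111 ± 10.9 TPM (SD, n = 3 each), though another gene on its strand covers 24.9% of the canonical transcript of NDRG1, while CDKN2B, the inhibitor p15, had 0 reads in every replicate. The cause of the missing CDKN2B reads was not tested, and the number of its gene copies was not measured. Over the 9 lists together, 99 of 105 genes found (94.3%) were at or above 1 TPM by the mean. The share was 56.7% over all protein-coding genes and 24.9% over all genes.

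**Figure D5:**
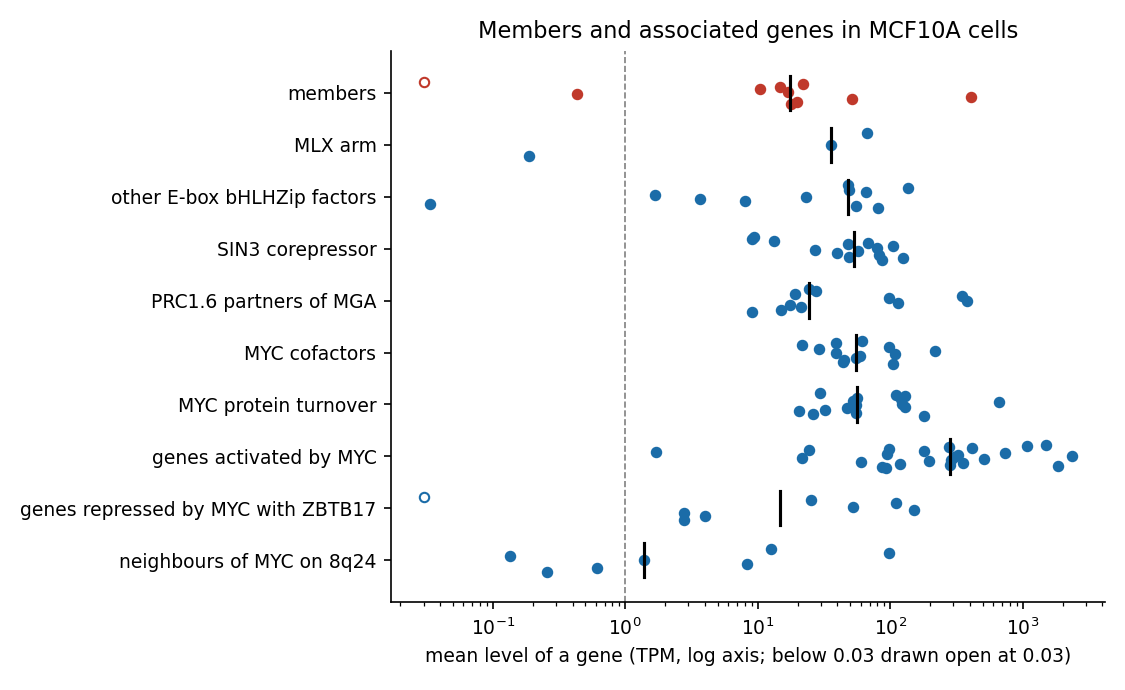
Mean level of each member (red) and of each gene in 9 lists (blue) in TPM on a log axis, with the median of each set as a black line, a dashed line at 1 TPM and genes below 0.03 TPM drawn open at that value. The median is 17.4 TPM for the members and 282 TPM for genes activated by MYC, and MYC is the member farthest to the right at 406 TPM.

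The long non-coding gene PVT1, next to MYC on 8q24 and often gained together with it, was the highest of 7 neighbours found, at 65.3, 168 and 59.9 TPM in replicates 1, 2 and 3. It was well above the others in replicate 2, in which MYC was not. The other neighbours were lower, with CASC8 at 8.31 ± 0.812, LRATD2 at 12.5 ± 1.34 and PCAT1 at 1.39 ± 0.134 TPM (SD, n = 3 each), and GSDMC, POU5F1B and CASC11 below 1 TPM at 0.608, 0.258 and 0.134 TPM. CCAT1 and TMEM75 were not matched by symbol. The number of gene copies was not measured.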

How the data were processed

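RNA was sequenced from 3 replicates of untreated MCF10A cells with an empty vector, after depletion of ribosomal RNA. Mapping was to hg38 and counting by Seq2science, per the study's methods, and the submitters' processing notes name STAR, fastp and MultiQC, with no version. The annotation release and strand setting are not given in the sources used here. The authors deposited TPM per gene and replicate, with replicates not pooled, and every column was used.

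Genes were named and placed by GENCODE release 44 on hg38, which held 62700 of 62754 identifiers. TPM times the length of the longest transcript, less 1 base per exon, gave whole multiples of the smallest step (tolerance 0.01) for 100% of values, read as reads. This assumes that the smallest step is 1 read. For MYCN, with no reads, the limit is that of 3 reads. Intervals and limits cover counting error only.

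Levels are means and SD over replicates. Neighbours in the order were compared with an exact sign-flip permutation test on log2(TPM + 1). Reads were tested for equal level between replicates by a chi-square test over all 15802 genes with at least 15 reads, after scaling by the median ratio, with Benjamini-Hochberg adjustment. On simulated reads of 15826 genes, 100% of those with a 2-fold change were found by this test, and 4.90% of 15626 unchanged ones had an unadjusted p under 0.05. The changes were placed in replicate 3 only, in genes with far more expected reads than the minimum of 15. The share found thus does not apply to genes near that minimum. The simulated reads held counting error only, which the test assumes, so the 4.90% does not give its rate in real libraries. Members and lists were chosen with earlier results of these data known. Named are all members, and of each list the 2 highest genes, those below 1 TPM, the whole MLX and 8q24 lists, and genes picked for their role after their values were seen. Alternatives covered the cutoff, length, pseudocount, scaling, read minimum and each replicate left out. The tools were scipy 1.17.1, pandas 2.3.3 and numpy 2.4.6, in Python 3.11.15, and matplotlib 3.10.9 for plots.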

Additional observations from a re-analysis of the deposited data

How the results depend on the processing

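No paired analysis was possible because there was no second group to pair with. The number of members at or above the cutoff for expression was 8 under all 9 alternatives tried, among them cutoffs of 0.5 and 2 TPM. The share of MYC among the partners of MAX was 77.1% with canonical lengths and 70.2% from reads with no division by length, the ratio of MYC to MAX 4.99 and 9.23, and the MXD share 14.9% with canonical lengths. From reads with no division by length the MXD share was 12.3% and the MGA share 13.3%. Only the length differs between these values. The ratio of MLX to MAX turned from 1.30 to 0.905 with canonical lengths, an alternative added after the data were seen. The number of members that differed between replicates was 6 without scaling (the cause was not tested) and from 1 to 3 with a replicate left out. Neighbours that met the rule for separation numbered from 6 to 8 of 9, MYCL over MYCN judged by the same rule, and list genes at or above the cutoff from 96 to 100 of 105. Canonical lengths moved the mean of 7 members by more than their SD, rescaling over protein-coding genes moved 4 and leaving out mitochondrially encoded genes moved 1. With a replicate left out no member moved that far, which the arithmetic of 3 values does not allow. Depth limits MYCL and MYCN, with 24 and 0 reads.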

Other observations

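After scaling by the median ratio, replicate 2 was the highest for 44 of 99 list genes at or above 1 TPM and for 4 of 9 members with reads in every replicate, and for 3434 of 8809 genes that averaged 10 TPM or more.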
